A study of Mus musculus with 6 samples.

Results

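The BCL2 family controls whether the mitochondrial outer membrane stays closed or is opened to start cell death. The genes described are 10 members chosen by symbol, from 55487 genes listed in the files: the anti-apoptotic Bcl2, Bcl2l1 and Mcl1, the pore-forming effectors Bax, Bak1 and Bok, and the BH3-only genes Bcl2l11, Bid, Bbc3 and Pmaip1. Each symbol matched 1 Ensembl identifier, and all 10 passed the filter on low counts. RNA was measured in LSK cells, marrow cells without lineage markers that carry c-KIT and SCA1 on their surface, among which are the blood stem cells and the earliest progenitors. The tested mice were 3 with the genotype BrmKO, written Brm-/- in the study design, and the controls were 3 wild type (WT) mice, with the strain background C56Bl/6 for both. Smarca2 encodes BRM, which supplies the ATPase activity of some SWI/SNF complexes, the machines that move nucleosomes. The sources used here do not give the age and sex of the mice, which part of the gene was removed, or whether it was lost in all tissues.

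Anti-apoptotic proteins hold BAX and BAK in check, and BH3-only proteins relieve that hold or activate the effectors directly. Once active, BAX and BAK form pores that release cytochrome c, which assembles the caspase-activating apoptosome. Mcl1 is known to be required for the survival of mouse blood stem cells, and Bbc3 and Pmaip1 are known targets of p53. The amounts of these proteins are also set by their turnover, which counts of RNA do not show.

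A common feature of the family is the BH3 region, the short helix by which effector and BH3-only members bind the groove of another member. The coding sequence for it was read from the longest complete coding transcript of each gene in the GENCODE M21 transcripts of GRCm38. It was found as a leucine codon, any pair of codons and a codon for isoleucine, leucine, methionine, valine or alanine. A glycine or alanine codon, an aspartate codon and a codon for aspartate, glutamate or glycine had to follow. That pattern occurred exactly 1 time in each of the 9 coding sequences searched. Its final glycine served only Mcl1, and its alanine before the aspartate only Bbc3. The match therefore locates the region and is not a test. The sequences are shown because members that act in opposite directions have this stretch in common. Pmaip1 was not searched, and its sequence is not shown here. Each runs 5′ to 3′ on the coding strand over 45 bases, and capitals mark the leucine codon and the glycine or alanine and aspartate codons.
Bcl2: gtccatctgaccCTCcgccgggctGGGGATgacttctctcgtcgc
Bcl2l1: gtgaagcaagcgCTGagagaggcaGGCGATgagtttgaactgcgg
Mcl1: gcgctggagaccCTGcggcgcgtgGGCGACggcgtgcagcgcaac
Bax: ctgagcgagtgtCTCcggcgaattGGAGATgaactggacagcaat
Bak1: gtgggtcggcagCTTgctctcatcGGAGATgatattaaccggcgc
Bok: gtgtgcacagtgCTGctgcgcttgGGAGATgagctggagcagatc
Bcl2l11: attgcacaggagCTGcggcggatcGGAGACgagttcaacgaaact
Bid: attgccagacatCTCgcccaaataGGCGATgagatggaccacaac
Bbc3: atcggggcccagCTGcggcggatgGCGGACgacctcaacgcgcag
Of these 9, Bbc3 alone had alanine rather than glycine before the aspartate. The genes lie on chromosomes 1 (Bcl2 and Bok), 2 (Bcl2l1 and Bcl2l11), 3 (Mcl1), 6 (Bid), 7 (Bax and Bbc3), 17 (Bak1) and 18 (Pmaip1). Counts are for a gene as a whole, so the long and short forms of Bcl2l1, Mcl1 and Bcl2l11 were not told apart.

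The libraries held 29.18 to 33.29 M reads in genes in BrmKO and 28.01 to 36.46 M in WT. Smarca2 had 805, 761 and 958 reads in the BrmKO libraries and 6284, 6932 and 4270 in the WT libraries, and its log2 fold change was -2.72 ± 0.13 (SE, edgeR, adjusted p = 2.97e-05). Kit averaged 976 ± 27.5 CPM in BrmKO and 941 ± 91.0 CPM in WT (SD, n = 3 each), where CPM are read counts scaled to a common library size. Ly6a, which encodes SCA1, averaged 30.5 ± 4.84 CPM in BrmKO and 24.7 ± 6.19 CPM in WT. Markers of other blood cells were detected in every library. Summed levels of 8 T and NK markers were 236 to 244 CPM in BrmKO and 231 to 264 CPM in WT, nearly all of it Nkg7, and Cd3e alone had 0 reads in any library. Those of 10 neutrophil and monocyte markers were 496 to 589 CPM in BrmKO and 551 to 697 CPM in WT, mainly Lyz2. Those of 9 B lineage markers were 705 to 846 CPM in BrmKO and 720 to 1483 CPM in WT. Most of the B lineage sum was Ighm, highest in WT replicate 1 at 1291 CPM. Of the genes tested in these 3 lists 0 passed, with unadjusted p under 0.05 for 1 of 6, 1 of 9 and 2 of 7. Their median log2 fold changes were 0.34, -0.33 and -0.44, with 2 of 6, 8 of 9 and 6 of 7 genes below 0. The summed erythroid markers also overlapped between genotypes, and 0 of 8 passed. Replicate 3 of both genotypes stood apart from the other libraries on the second principal component. Reads in no annotated gene made up 9.29% of BrmKO replicate 3 and 8.41% of WT replicate 3, against 5.79% to 6.61% in the others. The part of this difference in the member values was not tested.

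None of the 10 members passed the test between genotypes, at an adjusted p of 0.05 over all 15691 genes tested (edgeR quasi-likelihood test, Benjamini-Hochberg). Across all genes 22 passed, which is 0.14%. One member, Bok, had an unadjusted p under 0.05, where 5.85% of all genes did. DESeq2 and limma-voom likewise passed 0 of the 10. The members' median log2 fold change was -0.11, with 3 above 0 and 7 below, beside a median of -0.01 over all genes tested. In bulk RNA, fewer cells of a type and less RNA per cell cannot be told apart. Beside the missed threshold, the intervals show how large a change the data still allow. For 6 members, Bcl2, Bcl2l1, Mcl1, Bax, Bid and Bbc3, the 95% interval of the fold lay wholly within 1.5-fold in either direction.

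**Figure D1:**
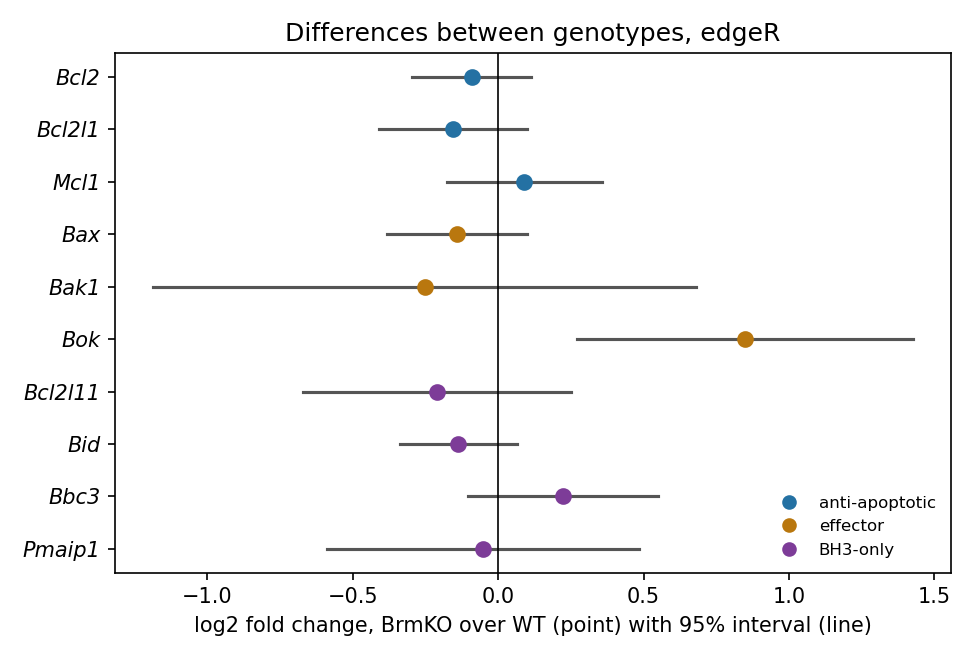
Log2 fold change of each member, BrmKO over WT, from edgeR (points, coloured by role) with its 95% interval (lines), on the horizontal axis. Bok at 0.85 is the only member whose interval leaves out 0, and Bak1, with the fewest reads, has the widest interval.

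Among the anti-apoptotic genes, Mcl1, whose product is a short-lived protein, stood highest per length. It was at 604, 569 and 520 CPM in the BrmKO libraries, against 529, 610 and 453 CPM in the WT libraries. The groups overlapped, with the lowest and the highest value both among WT. Its log2 fold change was 0.09 ± 0.12 (95% interval of the fold 0.885 to 1.28, adjusted p = 0.999). Without WT replicate 3, the lowest library, that change was -0.01, so the direction is not settled.

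Bcl2, the founding member and a known survival factor of lymphoid and stem cells, stood at 125, 134 and 149 CPM in BrmKO and 149, 145 and 141 CPM in WT. The highest BrmKO library, replicate 3, lay level with the highest WT library, and the other 2 lay below all WT libraries. The log2 fold change was -0.09 ± 0.09 (fold 0.815 to 1.08, adjusted p = 0.999). It was -0.18 without replicate 3 of both genotypes (unadjusted p = 0.0438, adjusted p = 0.474) and -0.03 without BrmKO replicate 1 (unadjusted p = 0.781), the ends of its range over the alternatives. Bcl2l1, which encodes BCL-XL and is best known for keeping maturing red cells and platelets alive, stood at 39.4, 33.3 and 33.7 CPM in BrmKO and 40.1, 41.9 and 36.6 CPM in WT. BrmKO replicates 2 and 3 lay below all WT libraries, while BrmKO replicate 1 lay among them. Its log2 fold change was -0.16 ± 0.11 (fold 0.752 to 1.07, adjusted p = 0.999). The summed level of 8 platelet and megakaryocyte markers was 446 to 617 CPM in BrmKO and 673 to 898 CPM in WT, most of it Itga2b and Pf4. Of the 7 that could be tested, 1, the chemokine gene Pf4, passed, 4 had an unadjusted p under 0.05, and the median log2 fold change was -0.71. It was -0.08 ± 0.13 for Gp9. Their part in the Bcl2l1 values was not tested.

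**Figure D2:**
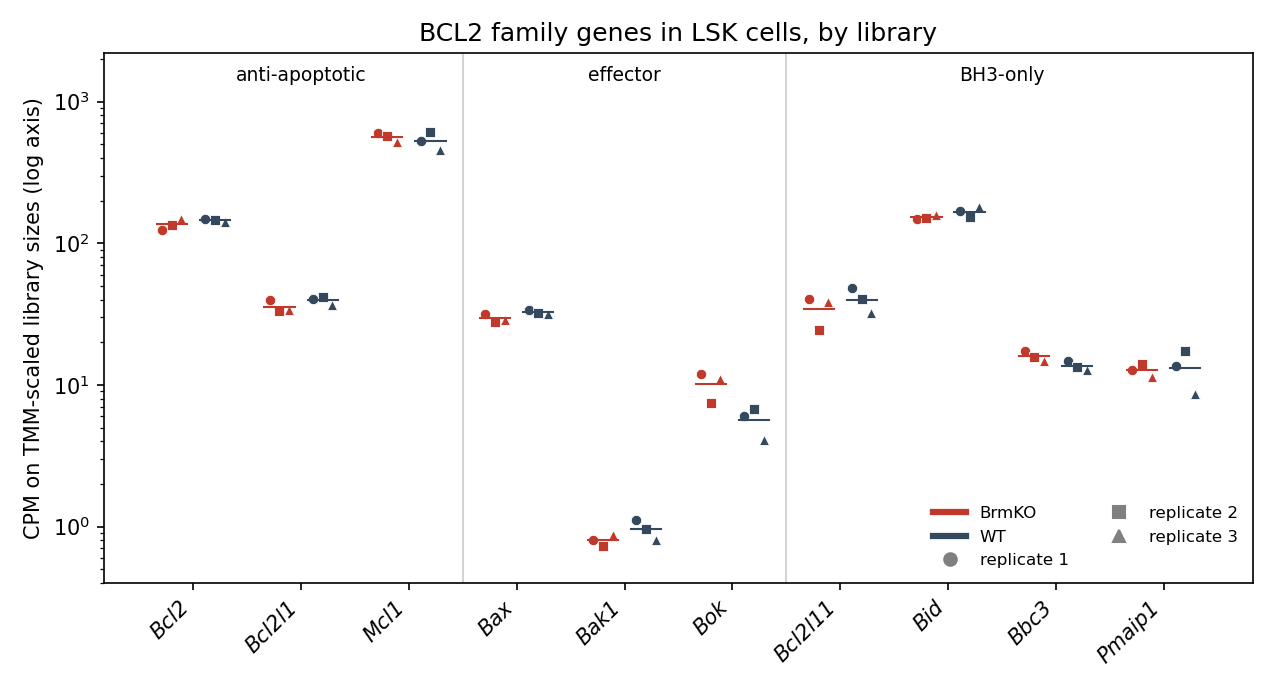
Level of each member in each library, in CPM on TMM-scaled library sizes (log axis), grouped by role, with BrmKO left of WT. Points are libraries, shaped by replicate number, and bars are group means. The genotypes overlap for all members except Bok, where the BrmKO libraries sit between 7.49 and 11.9 CPM and the WT libraries between 4.08 and 6.77 CPM.

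The effectors included both a well expressed gene, Bax, and the lowest of the family, Bak1. Bax stood at 31.9, 27.9 and 28.9 CPM in BrmKO and 33.8, 32.4 and 31.5 CPM in WT, with BrmKO replicate 1 inside the WT range and the other 2 below it. Its log2 fold change was -0.14 ± 0.11 (fold 0.768 to 1.07, adjusted p = 0.999). Exons of Gm45808, on the same strand and with 0 reads in any library, cover 192 of the 1576 exon bases of Bax, and how many reads this left unassigned was not tested. Bak1 was barely detected, with 24, 21 and 30 reads in the BrmKO libraries and 40, 31 and 23 reads in the WT libraries. That is 0.802 ± 0.0704 CPM in BrmKO and 0.956 ± 0.148 CPM in WT (SD, n = 3 each), a fold with an interval of 0.439 to 1.60. That interval takes in a 1.5-fold difference in either direction. Exons of the opposite-strand Ggnbp1, annotated under a pair of identifiers, cover 437 and 177 of the 2407 exon bases of Bak1. HTSeq assigns a read that falls on both genes to neither unless strand is used, and how many Bak1 reads were lost in this way was not tested.

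Bok, an effector-like member known to act without BAX and BAK, had the smallest p of the family, at rank 238 of the 15691 genes. It had 355, 215 and 379 reads in the BrmKO libraries against 217, 220 and 116 reads in the WT libraries. Scaled for depth, these were 11.9, 7.49 and 11.0 CPM in BrmKO and 5.99, 6.77 and 4.08 CPM in WT. The groups did not overlap, as in 11.1% of all genes tested, and BrmKO replicate 2 lay close above the highest WT library. The means were 10.1 ± 2.32 CPM in BrmKO and 5.61 ± 1.39 CPM in WT (SD, n = 3 each). This gave a log2 fold change of 0.85 ± 0.26, a 1.80-fold difference with an interval of 1.21 to 2.69 (unadjusted p = 0.00856, adjusted p = 0.562). Leaving out 1 library at a time moved the log2 fold change between 0.67 and 1.02. Without replicate 3 of both genotypes it was 0.60, with an unadjusted p of 0.0570. No annotated exon of another gene overlaps Bok, and no transcript of another gene matched it at 95% identity over at least 50% of its length. In other marker lists, too, some genes had a small unadjusted p between the genotypes. Of 10 stromal and endothelial markers 0 passed, 4 had an unadjusted p under 0.05, and the median log2 fold change was -1.30. Their sum, 191 to 292 CPM in BrmKO and 192 to 402 CPM in WT, overlapped and was mostly Pecam1, at about 152 CPM in BrmKO and 153 CPM in WT. Of 10 genes that respond to cell handling 0 passed, 4 had an unadjusted p under 0.05, and the median was 0.17. Their sum was 17510 to 18820 CPM in BrmKO and 13000 to 18640 CPM in WT. Among these, Klf4 stood at 33.3 CPM in BrmKO and 12.4 CPM in WT without overlap (log2 fold change 1.43 ± 0.30, adjusted p = 0.194), Fos had 0.67 ± 0.23, Dusp1 0.59 ± 0.18 and Hspa8 -0.40 ± 0.15. The part of these lists, and of the platelet markers above, in the Bok values was not tested.

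The 3 genes whose pattern over the 6 libraries lay nearest to that of Bok were Phf11d, Hist3h2ba and Gm26532. Nearness was the root mean square difference of log2 levels centred on each gene's mean, over 10490 candidate genes with a mean of at least 5 CPM. It was 0.128, 0.169 and 0.175 for the 3 genes, where Bok itself spread by 0.522 about its own mean. Their log2 fold changes were 1.05 ± 0.27, 0.84 ± 0.29 and 0.77 ± 0.29, and none of these passed in edgeR (adjusted p = 0.376, 0.694 and 0.763). Phf11d passed with DESeq2 (adjusted p = 0.0457), and its adjusted p lay between that and 0.924 over the 12 alternatives tried.

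The BH3-only genes were led, per length, by Bid, which links death receptors to mitochondria once caspase-8 has cut its product. It stood at 149, 150 and 157 CPM in BrmKO and 168, 152 and 181 CPM in WT. BrmKO replicate 3 lay above WT replicate 2, and the other BrmKO libraries lay below all WT libraries. The log2 fold change was -0.14 ± 0.09 (fold 0.791 to 1.05, adjusted p = 0.979). Bid shares 628 of its 3550 exon bases with Bcl2l13 on the opposite strand. Without strand, reads from the shared stretch cannot be told apart, and HTSeq counts them for neither gene.

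Bcl2l11, which encodes BIM, a binder of all anti-apoptotic members, varied widely within genotypes. It stood at 40.5, 24.5 and 38.8 CPM in BrmKO and 47.9, 40.1 and 32.0 CPM in WT. BrmKO replicate 2 lay lowest of all and WT replicate 1 highest, with the other 4 interleaved. Its log2 fold change was -0.21 ± 0.21 (fold 0.628 to 1.19, adjusted p = 0.999), and it was -0.02 without BrmKO replicate 2.

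Bbc3, which encodes PUMA, stood at 17.4, 15.7 and 14.7 CPM in BrmKO and 14.8, 13.4 and 12.7 CPM in WT. The groups overlapped only where BrmKO replicate 3 lay just below WT replicate 1. The log2 fold change was 0.22 ± 0.15 (fold 0.930 to 1.46, adjusted p = 0.979). Pmaip1, which encodes NOXA, a partner of MCL1, stood at 12.8, 14.2 and 11.3 CPM in BrmKO and 13.7, 17.3 and 8.69 CPM in WT. All BrmKO values lay inside the WT range, and the log2 fold change was -0.05 ± 0.24 (fold 0.665 to 1.40, adjusted p = 0.999). Its sign turned with single libraries left out, at 0.19 without WT replicate 2 and 0.03 without BrmKO replicate 3. Trp53, the gene of the factor known to induce both, averaged 370 ± 24.2 CPM in BrmKO and 370 ± 15.0 CPM in WT, with a log2 fold change of -0.0022 ± 0.087. Mdm2, another p53 target and the ligase that degrades p53, had 0.02 ± 0.10.

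To set the members beside each other, counts were divided by length, as CPM per kb of summed exon length. Mcl1 led at 165 ± 12.3 in BrmKO and 155 ± 23.0 in WT (SD, n = 3 each). Averaged over all 6 libraries it made up 59.5% of the summed level of the 10 genes and stood above 98.6% of the tested genes with a length. That share is smaller with the longest transcript as length. Mcl1 then stayed at 160 CPM per kb over all 6 libraries, while Bid rose from 44.9 to 66.0. Bid followed with 42.8 ± 1.30 CPM per kb in BrmKO and 47.0 ± 3.99 in WT. Bax had 18.8 ± 1.31 in BrmKO and 20.7 ± 0.726 in WT, and Bcl2 had 14.8 ± 1.34 in BrmKO and 15.8 ± 0.451 in WT. These first 4 stood in the same order in each of the 6 libraries, without overlap between neighbours.

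Below them the order was less fixed. Bcl2l1, at 7.73 ± 0.749 CPM per kb in BrmKO and 8.61 ± 0.589 in WT, stood above Bbc3 in 5 of 6 libraries. Bbc3 had 7.49 ± 0.649 in BrmKO and 6.42 ± 0.483 in WT. Pmaip1, Bcl2l11 and Bok overlapped across libraries at means of 4.75, 4.65 and 4.28 CPM per kb over all 6. Bok stood above Bcl2l11 in 3 of 6 libraries, the 3 of BrmKO. Bak1 was last, at 0.333 ± 0.0292 in BrmKO and 0.397 ± 0.0615 in WT, above 13.2% of tested genes. With the length of the longest transcript instead, 7 of 10 members kept their place, and Bcl2l11, Bok and Pmaip1 changed places among themselves.

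**Figure D3:**
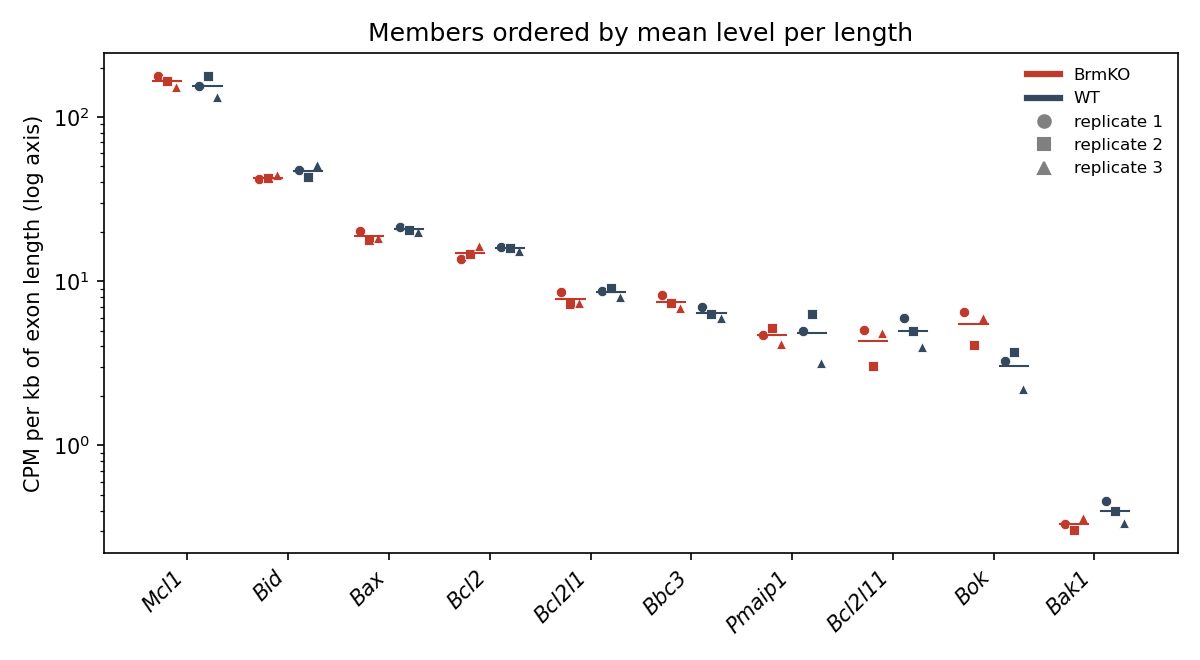
Members ordered by mean level per length, in CPM per kb of exon length (log axis), with BrmKO left of WT, points as libraries and bars as group means. Mcl1 lies far above the rest, the genes from Pmaip1 to Bok overlap, and Bak1 lies lowest.

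Ratios within a library do not depend on how libraries were scaled, and are given as descriptions with no test. Their size does depend on the gene length used, here the summed exon length. The ratio of Bax to Bcl2 per length was 1.48, 1.21 and 1.13 in BrmKO, against 1.32, 1.30 and 1.30 in WT. WT libraries thus lay close together and BrmKO libraries on both sides of them. Bcl2l11 relative to Mcl1 was 0.0286, 0.0183 and 0.0317 in BrmKO and 0.0385, 0.0280 and 0.0301 in WT, with overlap. Mcl1 stood at 20.6, 22.9 and 20.8 times Bcl2l1 in BrmKO, against 17.7, 19.5 and 16.6 times in WT. With the longest transcript as length, the mean was only 11.99 times in BrmKO and 10.05 times in WT. The ratio of Mcl1 to Bcl2l1, 1 of 4 examined, did not overlap between genotypes, with a mean difference of 0.26 on the log2 scale. Neither gene passed on its own, and the levels of 11.1% of all single genes did not overlap either. Effector and BH3-only genes together amounted to 0.436, 0.425 and 0.482 of the anti-apoptotic sum in BrmKO and 0.503, 0.419 and 0.556 in WT. The ranges overlapped, and the widest values were both in WT.

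**Figure D4:**
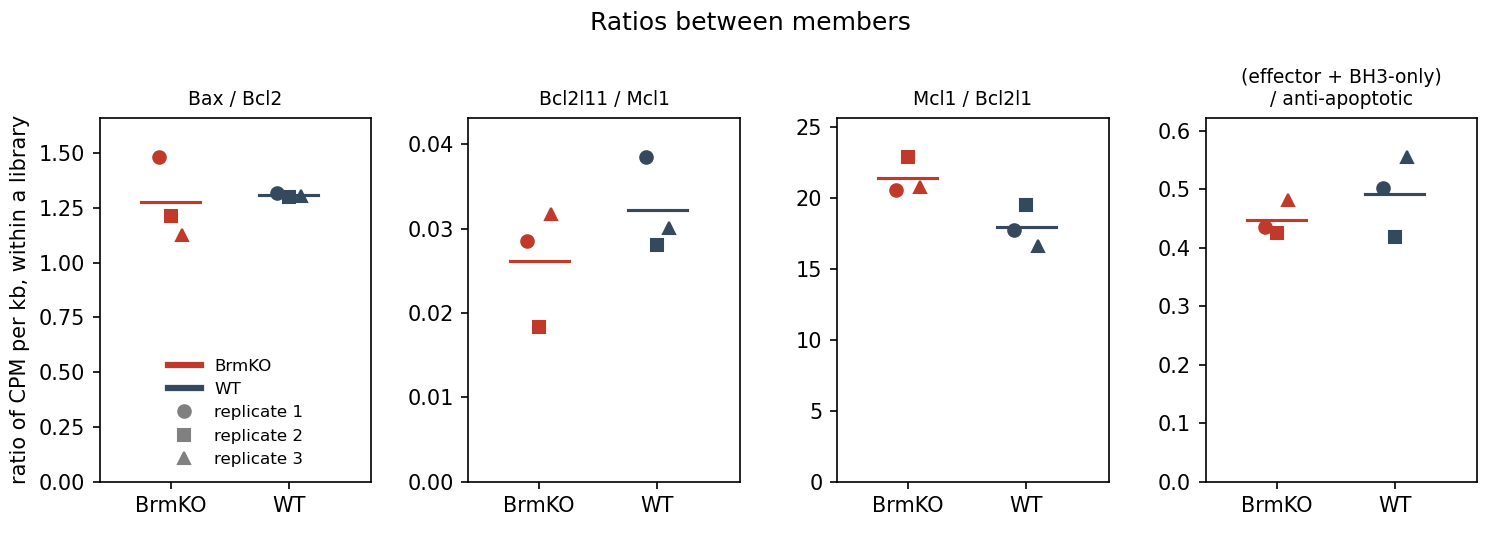
Ratios of CPM per kb of summed exon length between members within each library, with BrmKO left of WT, points as libraries and bars as group means. Mcl1 over Bcl2l1 is the ratio whose groups do not overlap, at 20.6 or more in BrmKO and 19.5 or less in WT, a separation that 11.1% of single genes also show.

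Within genotypes, the spread between libraries was set against that of tested genes within 2-fold of each member's level. Bcl2l11, with a coefficient of variation of 22.8%, varied more than 95.2% of the 4392 genes at its level, whose median was 10.3%. Pmaip1 varied by 24.4%, against a median of 14.6% for genes at its level, Bok by 23.8% against 17.8%, and Mcl1 by 11.7% against 8.55%. In those comparisons 84.8%, 70.7% and 73.8% of the genes varied less. The other 6 members varied less than the median at their level. They were Bcl2l1 (8.38% against 10.3%), Bcl2 (6.71% against 8.57%), Bid (6.37%, with 29.3% of genes at its level lower), Bbc3 (8.12% against 13.9%), Bax (5.52% against 10.8%) and Bak1 (12.6% against 41.5%). For Bak1, counting error alone amounts to 19.2%, more than the spread seen, so its low value does not show a steady gene. Pmaip1 and Bok were both lowest in WT replicate 3, as were Mcl1 and Bbc3, whereas Bcl2l11, Bcl2l1, Bax and Bak1 were lowest in BrmKO replicate 2.

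Genes that act with the family were counted from lists of the pathway. Of 15 other BCL2 family genes, 9 could be tested and 0 passed in either direction, with a median log2 fold change of 0.02. Those with the most reads were Bnip3l, a mitophagy receptor, at 131 ± 7.11 CPM in BrmKO and 138 ± 20.5 CPM in WT, and Bcl2l13, at 114 ± 8.22 CPM in BrmKO and 109 ± 8.01 CPM in WT. Smallest in p were Bcl2a1d (0.66 ± 0.52) and Bcl2l12 (-0.18 ± 0.16). Bcl2a1d, an anti-apoptotic gene, matched Bcl2a1b and Bcl2a1a at 99.1% and 98.8% identity over 94.7% and 94.9% of its longest transcript. Its count is therefore uncertain. Bcl2l10 and Hrk had 0 reads in any library, and Bcl2a1a, Bcl2a1b, Bik and Bcl2l15 fell under the low-count filter.

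Downstream genes also passed in neither direction. Of 12 mitochondrial channel and release genes 0 passed (median -0.05), with Cycs, the gene of cytochrome c, at -0.15 ± 0.13 and Aifm1 at 0.12 ± 0.12. Among 10 apoptosome and caspase genes 0 passed (median 0.00), with Casp2 at 0.14 ± 0.09. Death receptor genes passed in 0 of 7 (median 0.03), with Tnfrsf1a at 0.09 ± 0.08 and the caspase-8 inhibitor Cflar at -0.08 ± 0.10. Regulators of the family passed in 0 of 17 tested (median 0.02), and Trp73, a relative of Trp53, had 0 reads in any library. Among them, Usp9x, whose product removes ubiquitin from MCL1, had -0.21 ± 0.14 and Myc 0.13 ± 0.09.

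The genes of inhibitor of apoptosis (IAP) proteins passed in 0 of 5, and 4 of them lay below 0 (median -0.13). Xiap, the direct caspase inhibitor among them, stood at 7.92, 7.98 and 6.22 CPM in BrmKO and 12.0, 10.8 and 10.9 CPM in WT. All BrmKO libraries lay below all WT libraries, as either genotype did in 11.1% of all genes. Its log2 fold change was -0.61 ± 0.18, which did not pass over all genes (unadjusted p = 0.00715, adjusted p = 0.520). Birc2, which encodes cIAP1, had -0.19 ± 0.09 (adjusted p = 0.888).

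**Figure D5:**
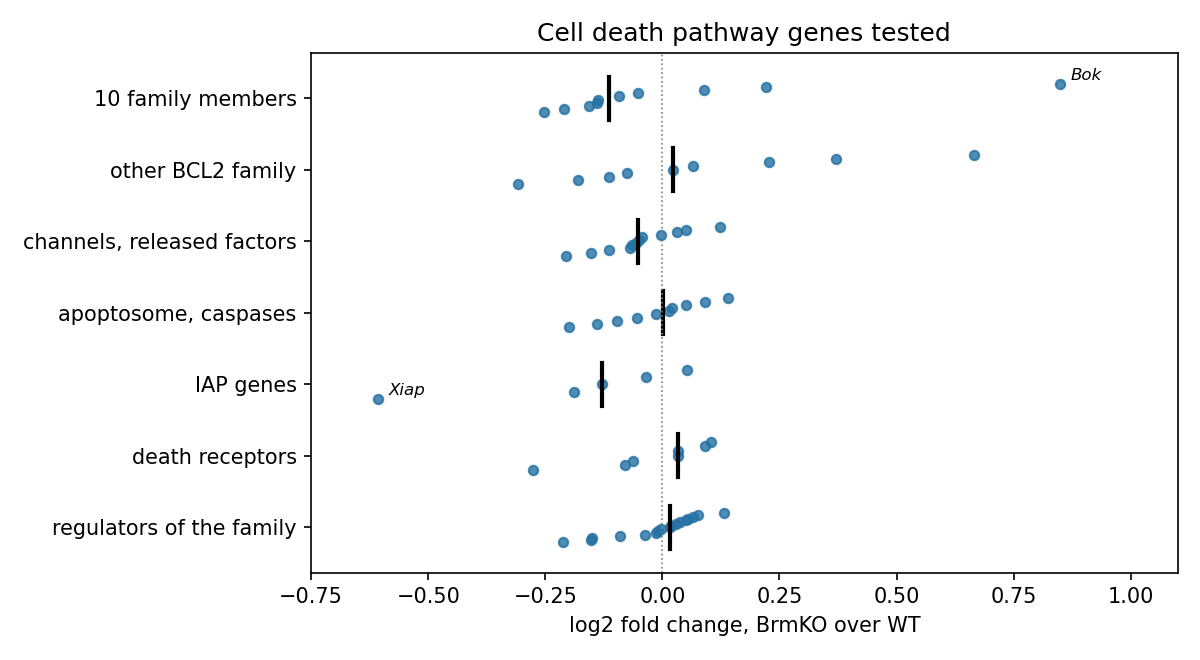
Log2 fold changes, BrmKO over WT, of every tested gene of the family and of the pathway lists (points, spread vertically by rank) with the median of each list (black bars). Most genes lie within 0.3 of 0, and Bok at 0.85 and Xiap at -0.61 lie farthest out in their lists.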

How the data were processed

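Polyadenylated RNA of sorted LSK cells was made into SMART-Seq v4 libraries, per the labels' protocols, from 3 BrmKO and 3 WT mice. The kit does not mark strand and adds no molecular identifiers, so amplified copies of a molecule cannot be told from separate molecules. The intervals of the fold changes also include the variation between libraries. The authors deposited raw read counts per Ensembl gene, 1 file per library. The submitters' processing notes name bcl2fastq, FastQC, STAR, HTSeq, DESeq2 and the build GRCm38. Versions, the strand setting and the annotation release were not given in those sources. The 5 rows that name no gene, 18.9% to 22.8% of each library, were left out.

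Symbols, positions and exon lengths came from GENCODE M21 (GRCm38), which placed 55227 of the 55487 genes. BrmKO was compared with WT in edgeR 4.0.16 (R 4.3.3) with TMM factors, filterByExpr, robust quasi-likelihood fits, no covariate and Benjamini-Hochberg adjustment over 15691 genes. CPM use TMM-scaled library sizes, and errors of log2 fold changes are SE. Alternatives were DESeq2 1.42.0, limma-voom 3.58.1, RLE factors, no filter, a replicate block, libraries left out and another gene length. Copies were searched with minimap2 2.31. In simulated counts for this comparison, over 15144 genes, edgeR recovered 34.3% of genes changed 1.5-fold and 68.7% at 2-fold, and 9.86% of its calls were of unchanged genes.

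The members and lists were chosen with earlier results of these data known. All members and Smarca2 are named, and per pathway list those that pass or else the 2 with the smallest p, plus the 3 genes nearest in pattern to the member with the smallest p. The result of 1 such list gene is not reported here. Trp53, Mdm2, Bnip3l, Bcl2l13, Kit and Ly6a were named after their values were seen. From the marker lists, markers at 0 were to be named. Nkg7, Lyz2, Ighm, Itga2b, Pf4, Gp9, Pecam1, Klf4, Fos, Dusp1 and Hspa8 were added after their values were seen.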

Additional observations from a re-analysis of the deposited data

How the results depend on the processing

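The count of members that passed was 0 under the 12 alternatives run for it. Of 120 log2 fold changes of members under these, 117 kept their direction and 3 did not. With 1 library left out at a time, Mcl1 ranged between -0.014 and 0.20 and Pmaip1 between -0.28 and 0.19, and the other 8 members kept their sign. The number of all genes that passed was 22 in the reported fit, 142 with DESeq2, 58 with no low-count filter and 6 to 36 with 1 library left out, and the cause was not tested. With the replicate block it was 25, and 0 members passed. The numbers were not taken as pairs, since they are not stated to pair animals. Same-numbered libraries had correlations of deviations of 0.03, -0.01 and 0.15, and only those numbered 3 matched each other best in both directions. Of 192 values of the other named genes, marker genes aside, run under the same alternatives after the data were seen, 191 kept their direction and side of the threshold, the exception being Phf11d with DESeq2 (1.05). The order of levels per length kept 7 of 10 places with the other gene length, and the difference in the pro- to anti-apoptotic ratio was -0.13 with both lengths. Depth limits Bak1 most, with 21 to 40 reads per library.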
